A study of Mus musculus with 12 samples.

Results

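Apoe, Apoc1, Apoc4 and Apoc2 are 4 protein-coding genes that lie next to each other on the minus strand of mouse chromosome 7, and their RNA was followed in CD11b+CD45int microglia sorted from the brain. They were taken by gene symbol from the count tables, 4 of 55401 identifiers, and 3 of them (Apoe, Apoc1 and Apoc4) were among the 16451 genes with enough counts to be fitted. Apoc2 had 0 to 5 counts in each library and was not fitted. The members were selected on measured values of these same libraries, above all the higher level of Apoc1 in miKO-tFCI than in WT-tFCI. Levels and fold changes of the members are therefore given as a description, with a standard error and without a test.

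Apolipoprotein E is the main lipid carrier made inside the brain: it binds cholesterol and phospholipid that cells export and delivers them to receptors of the LDL receptor family. In the healthy brain astrocytes are its main source, and microglia are known to make more of it when they leave the resting state. Apolipoproteins C-I and C-II are small proteins that exchange between lipoprotein particles, the former an inhibitor of lipoprotein uptake and of several lipid enzymes and the latter the activator of lipoprotein lipase, whereas the role of apolipoprotein C-IV is less well defined. In macrophages the genes of the cluster share distant enhancers that respond to the liver X receptors (LXRs), nuclear receptors for oxidised cholesterol, and HDAC3 is the deacetylase of the NCoR and SMRT corepressor complexes that nuclear receptors recruit.

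The study compared male mice of 2 genotypes after sham surgery or transient focal cerebral ischemia (tFCI), with 3 biological replicates in each of 4 groups. WT mice (WT-Sham, WT-tFCI) were Cx3cr1 wt/wt Hdac3 loxp/loxp and carried no Cre, and miKO mice (miKO-Sham, miKO-tFCI) were Cx3cr1 CreER/wt Hdac3 loxp/loxp, in which tamoxifen deletes Hdac3 in cells that express Cx3cr1. Tamoxifen was given for 5 days at 6 to 8 weeks of age and surgery followed at least a month later. Whether WT mice received tamoxifen was not spelled out in the sources used here. In tFCI the left middle cerebral artery was occluded for 60 min, sham mice had the same anesthesia and exposure of the artery, and cells were collected on day 3, each replicate pooled from 3 to 4 hemispheres. The floxed alleles were shared by all groups, whereas the CreER allele, which takes the place of 1 copy of Cx3cr1, was present in the miKO groups alone, so that its presence and the loss of Hdac3 cannot be told apart.

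Each library held 7697864 to 9452222 counts on genes. Hdac3, the targeted gene, lay at 35.0 to 46.4 CPM (counts scaled to library size with TMM factors) in WT-Sham, 20.9 to 25.8 in miKO-Sham, 43.9 to 54.0 in WT-tFCI and 27.1 to 36.0 in miKO-tFCI. The labels place replicate 1 of each group in batch 1 and replicates 2 and 3 in batch 2. miKO-Sham replicates 1 and 2, although labelled as different batches, were the closest pair of replicates in the series: their counts differed by a chi-square of 2.85 per degree of freedom, against 20.4 to 85.8 for the other pairs from different batches and 3.75 to 42.8 for pairs from the same batch. Their deposited files also carry a shared code in their names, so that they may stem from the same sample or a batch label may be wrong, which the sources used here do not settle. They differed by more than sampling noise and were kept as separate libraries. The n of 3 in miKO-Sham, its errors and the within-batch values that use it rest on these labels, and fold changes of miKO-Sham are also given without either of them. Microglial markers (15 genes, none at 0) were high in all libraries and summed to 36726 to 45845 CPM in WT-Sham, 31130 to 37538 in miKO-Sham, 24556 to 26872 in WT-tFCI and 12538 to 22845 in miKO-tFCI.

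By GENCODE M21 on GRCm38, Apoe (ENSMUSG00000002985.16) spans chr7:19696109-19699188 and has 2138 exon bases. Apoc1 (ENSMUSG00000040564.14, chr7:19689481-19692660, 744 exon bases) starts 6528 bases from the start of Apoe. Apoc4 (ENSMUSG00000074336.5, chr7:19678083-19681479, 2537 exon bases) starts 17709 bases away. Apoc2 (ENSMUSG00000002992.17, chr7:19671579-19677941, 813 exon bases) is the farthest of them, at 21247 bases. Apoe and Apoc1 share no exon base with another gene. A read-through gene, Gm44805 (ENSMUSG00000109350.1, chr7:19671584-19681423), runs over Apoc4 and Apoc2 on the same strand and shares 119 bases (4.69%) with the exons of Apoc4 and 646 bases (79.5%) with those of Apoc2.

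**Figure D1:**
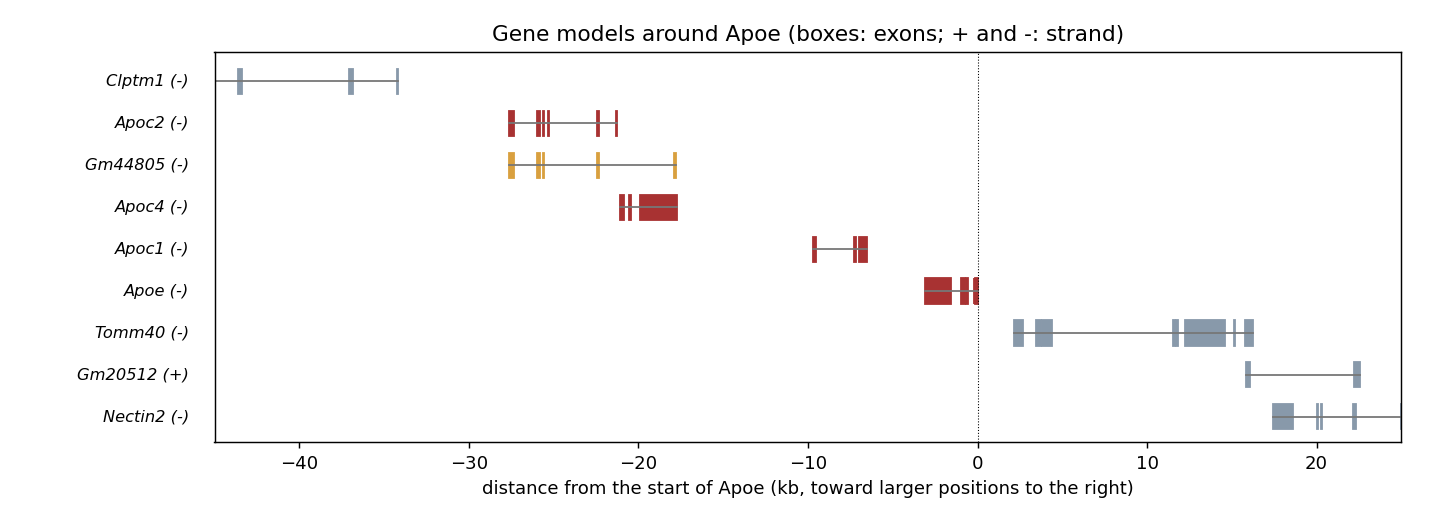
Gene models around Apoe, drawn to scale as distance in kb from the start of Apoe (dotted line), with exons as boxes and the strand after each name. The 4 members are red and lie side by side, and the exons of the read-through gene Gm44805 (orange) coincide with most of Apoc2.

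The sequences just before the starts of Apoe and Apoc4 are shown because these genes differed between groups in the same direction. They are the 250 bases before the start in RefSeq on GRCm38.p6, minus strand, 5′ to 3′, and capitals mark each match to one of 8 short motifs searched on both strands. Of the members, 3 had such a sequence at the start of their gene model and Apoc1 had none.
Apoe, chr7:19699189-19699438: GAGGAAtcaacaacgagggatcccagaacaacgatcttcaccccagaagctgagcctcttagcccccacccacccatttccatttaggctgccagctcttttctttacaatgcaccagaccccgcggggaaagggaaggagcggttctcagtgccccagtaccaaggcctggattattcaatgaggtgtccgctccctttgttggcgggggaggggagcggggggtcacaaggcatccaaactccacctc
Apoc4, chr7:19681461-19681710: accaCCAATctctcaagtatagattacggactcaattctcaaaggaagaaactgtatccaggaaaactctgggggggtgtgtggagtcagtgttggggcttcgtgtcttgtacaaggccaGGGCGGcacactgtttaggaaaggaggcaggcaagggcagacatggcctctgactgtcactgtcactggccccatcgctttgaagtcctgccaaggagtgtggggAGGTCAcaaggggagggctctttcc

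The Apoe sequence held 1 match, the PU.1 core GAGGAA at 250 to 245 bases before the start, which 23.3% of 32851 promoters of the same length hold. The Apoc4 sequence held a CCAAT box at 246 to 242 bases (33.8% of promoters), the GC box GGGCGG at 130 to 125 bases (32.7%) and the nuclear receptor half-site AGGTCA at 25 to 20 bases before the start (14.0%). In Apoc2 the half-site alone was found, at 115 to 110 bases. None of the 3 sequences searched held TATAAA (12.4% of promoters), the AP-1 site TGACTCA (4.46%), the E-box CACGTG (6.02%) or a pair of half-sites with 4 bases between them, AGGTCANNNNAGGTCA (0.0152%), which contains the half-site and is the spacing LXRs are known to prefer. Apoc1 was not searched. G and C made up 57.2% of the Apoe sequence and 54.0% of that of Apoc4, beside a median of 52.4% over all promoters.

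Apoe was the most abundant member in every group, and its share of the counts on genes was higher in both miKO groups than in the WT groups. In WT-Sham it lay at 1512, 978 and 897 CPM in replicates 1, 2 and 3. In miKO-Sham it lay at 64078, 65549 and 12774 CPM, so that the lowest of these libraries was still far above all WT libraries. After tFCI the WT libraries lay at 4658, 5386 and 5129 CPM, and the miKO libraries at 13096, 34445 and 29398 CPM. The 4 groups thus stood in the order WT-Sham (1129 ± 334, SD, n = 3), WT-tFCI (5057 ± 369), miKO-tFCI (25646 ± 11158) and miKO-Sham (47467 ± 30054). Of these neighbours, only miKO-tFCI and miKO-Sham overlapped. As a share of the counts on genes, Apoe took 0.0987% to 0.158% in WT-Sham, 1.23% to 5.67% in miKO-Sham, 0.477% to 0.565% in WT-tFCI and 1.34% to 3.34% in miKO-tFCI. The Wilson 95% interval of a single library was at most 0.0314 percentage points wide, which covers counting error only, so the spread between replicates was far larger than the counting error.

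The spread of Apoe was small in the WT-tFCI libraries, where the highest was 1.16 times the lowest, and larger in WT-Sham (1.68 times), miKO-tFCI (2.63 times) and miKO-Sham (5.13 times). In miKO-Sham the low library was replicate 3, and in miKO-tFCI it was replicate 1. miKO-Sham replicate 3 also stood apart in the markers of border-associated macrophages (11 genes), which summed to 403 CPM there and to 121 and 118 CPM in replicates 1 and 2. Its microglial markers summed to 37538 CPM, the highest of the group. miKO-tFCI replicate 1 had the lowest sum of microglial markers of all libraries (12538 CPM) and the highest sum of astrocyte markers (14 genes, 904 CPM). Their part in the level of Apoe was not tested.

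**Figure D2:**
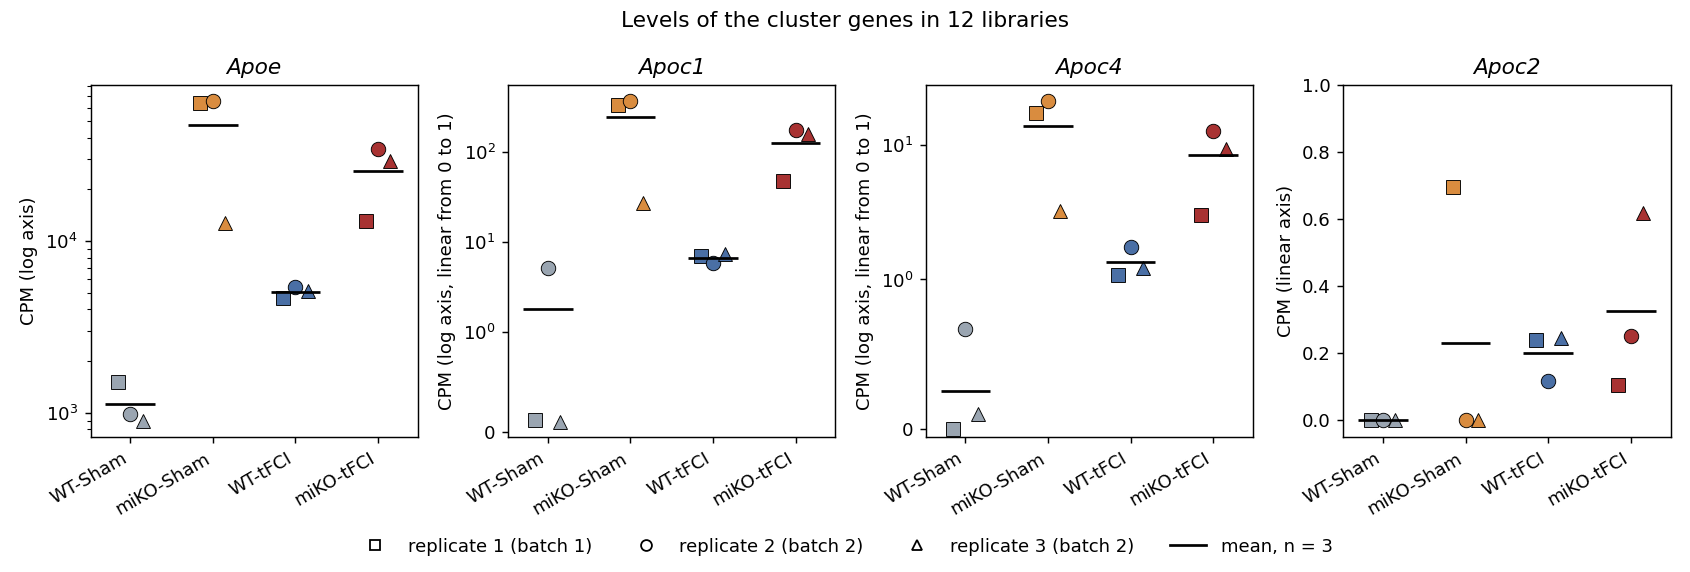
CPM of Apoe, Apoc1, Apoc4 and Apoc2 in the 12 libraries (squares, circles and triangles for replicates 1, 2 and 3, bars for the mean of 3), on log axes for Apoe, Apoc1 and Apoc4 (linear from 0 to 1 in the latter 2) and a linear axis for Apoc2. For Apoe, Apoc1 and Apoc4, the libraries of WT-Sham lie below those of WT-tFCI, and these below all libraries of both miKO groups, in which miKO-Sham replicate 3 and miKO-tFCI replicate 1 are the lowest.

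Apoc1, the neighbour of Apoe, was close to absent in WT-Sham and was abundant in 2 of the 3 miKO-Sham libraries. In WT-Sham it had 1, 46 and 1 counts (0.120, 5.15 and 0.103 CPM), so that nearly all counts of this group came from replicate 2. In miKO-Sham it had 2433, 2672 and 210 counts (338, 371 and 26.9 CPM), again with replicate 3 the lowest. In WT-tFCI it had 58, 50 and 61 counts (6.94, 5.77 and 7.43 CPM). In miKO-tFCI it had 465, 1388 and 1301 counts (48.0, 174 and 161 CPM), and replicate 1 was the lowest, as for Apoe. The group means were 1.79 ± 2.91 CPM in WT-Sham, 6.71 ± 0.854 in WT-tFCI, 128 ± 69.4 in miKO-tFCI and 245 ± 190 in miKO-Sham (SD, n = 3). WT-Sham replicate 2 came close to the lowest WT-tFCI library, and miKO-Sham and miKO-tFCI overlapped. Among the WT-Sham libraries, replicate 2 also had the highest CPM of Apoa1 (50.5, against 0.120 in the lowest library) and Apoa2 (21.7, against 1.74). Both are apolipoprotein genes outside the cluster. What lies behind these levels in replicate 2, and its counts of Apoc1 and Apoc4, was not tested.

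Apoc4, the least known of the fitted members, followed the same order of groups at a lower level. It had 0, 6 and 1 counts in WT-Sham, 123, 151 and 25 in miKO-Sham, 9, 15 and 10 in WT-tFCI and 29, 101 and 75 in miKO-tFCI. In CPM the means were 0.258 ± 0.362 in WT-Sham, 1.34 ± 0.344 in WT-tFCI, 8.32 ± 4.92 in miKO-tFCI and 13.7 ± 9.33 in miKO-Sham (SD, n = 3). With 0 to 6 counts a library in WT-Sham the counting error is large, and again replicate 2 held most of them.

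Apoc2 was barely detected in any group. It had 0 counts in each WT-Sham library, which allows up to 3 counts per library, 5, 0 and 0 in miKO-Sham, 2, 1 and 2 in WT-tFCI and 1, 2 and 5 in miKO-tFCI, and no fold was given. Gm44805, which shares most of its exon bases, had 0 counts over 12 libraries. HTSeq sets aside reads that fall on exons of more than 1 gene, and such ambiguous reads were 0.897% to 1.05% of all reads in WT-Sham, 1.42% to 1.46% in miKO-Sham, 1.56% to 1.68% in WT-tFCI and 1.62% to 1.90% in miKO-tFCI. How many of them came from Apoc2 cannot be read from the counts, so its low count does not show a low level.

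Per kb of exon, the members differed from each other by orders of magnitude. Apoe lay at 528 CPM per kb in WT-Sham, 22202 in miKO-Sham, 2365 in WT-tFCI and 11995 in miKO-tFCI (means of 3 libraries). Apoc1 lay at 2.41, 329, 9.03 and 172 CPM per kb in the same groups, and Apoc4 at 0.102, 5.42, 0.529 and 3.28. Apoe was above Apoc1 and Apoc1 above Apoc4 in 4 of 4 groups, with or without the length correction. Apoc2 was not placed in this order, since reads on most of its exon bases may have been set aside. The balance within the cluster also differed between groups: for each 1000 counts of Apoe there were 1.07 to 1.49 counts of Apoc1 in WT-tFCI, and 3.67 to 5.47 in miKO-tFCI. In miKO-Sham the values were 5.27, 5.66 and 2.11 in replicates 1, 2 and 3, and in WT-Sham 0.0795, 5.27 and 0.114, where replicates 1 and 3 rest on 1 count of Apoc1 each.

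The comparison of WT-tFCI with WT-Sham asks what ischemia alone does to microglia by day 3. From WT-Sham to WT-tFCI, Apoe was 4.51-fold higher (log2 fold change 2.17 ± 0.48, SE), Apoc4 5.08-fold (2.35 ± 1.01) and Apoc1 3.86-fold (1.95 ± 1.12). Within batch 1 the difference of Apoe was 1.62 and within batch 2 it was 2.49 (differences of mean log2 CPM, as in all within-batch values below). Values of Apoc1 and Apoc4 against WT-Sham turn on its replicate 2, without which WT-Sham held 1 count per library of Apoc1 and 0 and 1 of Apoc4, and the fitted log2 fold changes became 5.68 for Apoc1 and 4.19 for Apoc4, numbers that depend on the prior count. The WT-Sham and WT-tFCI libraries did not overlap for 3 of 3 members, nor for 49.8% of all genes. Genes counted as called where the edgeR p, adjusted by Benjamini-Hochberg, was below 0.05 and the log2 fold change exceeded 0.58 in size. In this comparison 20.9% of genes were called higher and 11.7% lower, and 1 of the 3 members, Apoe, was among the genes called higher, from which nothing is read since the members were chosen with these values known.

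Between the genotypes after sham surgery, the members differed most. From WT-Sham to miKO-Sham, Apoe was 42.0-fold higher (log2 fold change 5.39 ± 0.56, SE), Apoc1 146-fold (7.19 ± 1.04) and Apoc4 54.5-fold (5.77 ± 0.87). For Apoe the log2 difference was 5.41 within batch 1 and 4.95 within batch 2, and the fitted value was 5.04, 4.97 and 5.86 without miKO-Sham replicate 1, 2 and 3. Without replicate 1 or 2 of miKO-Sham, Apoc1 had 6.53 or 6.64 and Apoc4 had 5.16 or 5.39. Without replicate 2 of WT-Sham, the fitted value was 10.92 for Apoc1 and 7.61 for Apoc4. Here too the libraries did not overlap for 3 of 3 members, against 33.2% of all genes, and all 3 were among the 8.58% of genes called higher, while 6.8% were called lower.

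Between the genotypes after tFCI, the comparison on which the members were picked, Apoc1 was 18.0-fold higher in miKO-tFCI than in WT-tFCI (log2 fold change 4.17 ± 0.87, SE). Apoc4 was 5.78-fold (2.53 ± 0.70) and Apoe 5.10-fold higher (2.35 ± 0.49). All were smaller within batch 1 than within batch 2: the log2 differences were 1.49 and 2.60 for Apoe, 2.75 and 4.63 for Apoc1, and 1.30 and 2.71 for Apoc4. Within batch 1 each group has 1 library. That of miKO-tFCI is the one with the lowest microglial and highest astrocyte markers, and that of WT-tFCI had the highest astrocyte sum of its group (425 CPM). The part of these markers in the differences was not tested. Libraries did not overlap for 3 of 3 members and for 22.9% of all genes, and 3 of 3 members were among the 4.08% of genes called higher (4.71% were called lower). This count was 2 without WT-tFCI replicate 1 or 3, miKO-tFCI replicate 2 or 3 or a batch term, and 1 without WT-tFCI replicate 2.

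In miKO mice, the levels of the members after tFCI and after sham surgery overlapped. From miKO-Sham to miKO-tFCI the log2 fold change was −0.87 ± 0.47 for Apoe, −1.08 ± 0.75 for Apoc1 and −0.89 ± 0.62 for Apoc4 (SE), and the libraries overlapped for all 3 members, whereas they did not for 48.2% of all genes. The differences of mean log2 CPM were −2.29 in batch 1 and 0.14 in batch 2 for Apoe, −2.81 and 0.74 for Apoc1, and −2.42 and 0.38 for Apoc4. The sign in batch 2 turned on the measure, since the mean of logs gives weight to the low miKO-Sham replicate 3, and the count model fitted to batch 2 alone gave −0.31, −0.26 and −0.15. Left out in turn, miKO-Sham replicates 1, 2 and 3 gave −0.58, −0.38 and −1.39 for Apoe. For Apoc1 these values were −0.40, −0.48 and −1.81, and for Apoc4 −0.24, −0.50 and −1.56. In this comparison 21.9% of genes were called higher and 13.9% lower, with 0 of the 3 members among them, and 3 among those called without miKO-Sham replicate 3 or without a filter on low counts.

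The difference between the genotypes was thus smaller after tFCI than after sham surgery. The interaction of genotype and surgery was −3.04 ± 0.67 for Apoe, −3.02 ± 1.35 for Apoc1 and −3.24 ± 1.18 for Apoc4 on the log2 scale (SE), and for Apoe −3.91 within batch 1 and −2.35 within batch 2. Without WT-Sham replicate 2 it was −6.73 for Apoc1 and −5.09 for Apoc4. Without miKO-Sham replicate 1 or 2 it was −2.72 or −2.59 for Apoe, −2.48 or −2.38 for Apoc1 and −2.68 or −2.82 for Apoc4. Of all genes 1.25% were called with a positive and 2.57% with a negative interaction, and 1 of the 3 members, Apoe, was among the latter. Apoe was not among them without replicate 2 or 3 of WT-Sham or of WT-tFCI, or without replicate 1 or 2 of miKO-Sham. It was in the other fits with a library left out, and all 3 members were without miKO-Sham replicate 3. In bulk RNA, fewer cells of a type and less RNA per cell cannot be told apart.

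**Figure D3:**
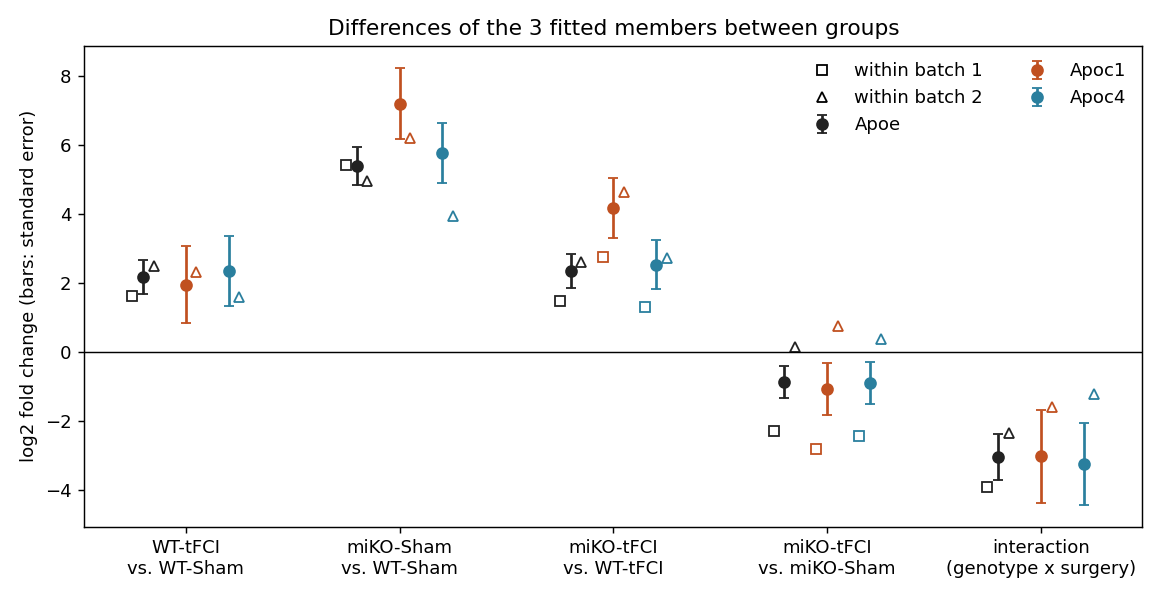
Log2 fold change of Apoe, Apoc1 and Apoc4 in 4 comparisons and in the interaction of genotype and surgery (filled points, bars for the standard error), with the differences within batch 1 (open squares) and batch 2 (open triangles). Batch 1 values of Apoc1 and Apoc4 that rest on 1 or 0 counts in WT-Sham are not drawn. All 3 members lie above 0 in the first 3 comparisons, and in miKO-tFCI vs. miKO-Sham the differences of mean log2 CPM lie below 0 in batch 1 and above it in batch 2, where the model fitted to batch 2 alone gave values just below 0 (−0.31 to −0.15).

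Between the genotypes, no other fitted gene near the cluster was as much higher as its members. Of 33 other genes fitted within 500 kb of Apoe, 6 rose and 3 fell in WT-tFCI vs. WT-Sham, 1 rose and 4 fell in miKO-Sham vs. WT-Sham, and 0 rose and 3 fell in miKO-tFCI vs. WT-tFCI (edgeR, adjusted over all genes). Summed over both directions, these counts are near the shares of all genes called higher and lower, which were 20.9% and 11.7%, 8.58% and 6.8%, and 4.08% and 4.71%. Their median log2 fold changes were −0.07, 0.05 and −0.08, beside 0.02, 0.04 and 0.04 over all genes fitted. In miKO-tFCI vs. miKO-Sham 4 rose and 4 fell, beside 21.9% and 13.9% of all genes, and 2 had a negative interaction, beside 2.57%. The nearest fitted gene on the far side of Apoc2 was Clptm1, whose start lies 34.2 kb from that of Apoe. It encodes a membrane protein linked to cleft lip and palate, and had a mean of 248 CPM in WT-Sham and 270 in miKO-Sham, and of 290 in WT-tFCI and 328 in miKO-tFCI. Next came Relb, a subunit of NF-kB, with a log2 fold change of 0.30 ± 0.19 (SE) in miKO-Sham vs. WT-Sham and −0.58 ± 0.19 in miKO-tFCI vs. WT-tFCI, neither of them called.

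On the other side of Apoe, Tomm40, the channel of the mitochondrial outer membrane importer, starts 16.2 kb away and lay at 49.7 CPM in WT-Sham, 50.3 in miKO-Sham, 64.3 in WT-tFCI and 62.6 in miKO-tFCI. Its log2 fold change was 0.02 ± 0.13 (SE) in miKO-Sham vs. WT-Sham and −0.05 ± 0.13 in miKO-tFCI vs. WT-tFCI. Gm20512 overlaps exons of Tomm40 and Nectin2 on the opposite strand and lay at 7.69 to 10.9 CPM in the group means. In the overlaps its reads and those of Tomm40 and Nectin2 may not be separable. Nectin2, a cell adhesion molecule 51.3 kb away, was the nearest gene called between the genotypes after tFCI, and it fell by 1.15 on the log2 scale (edgeR, adjusted p = 0.000175), opposite in direction to the members. Pvr, a related adhesion receptor, and Fosb, an AP-1 subunit, fell in the same comparison by 0.83 (adjusted p = 0.0139) and by 0.78 (adjusted p = 0.0268), at 222 and 389 kb.

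**Figure D4:**
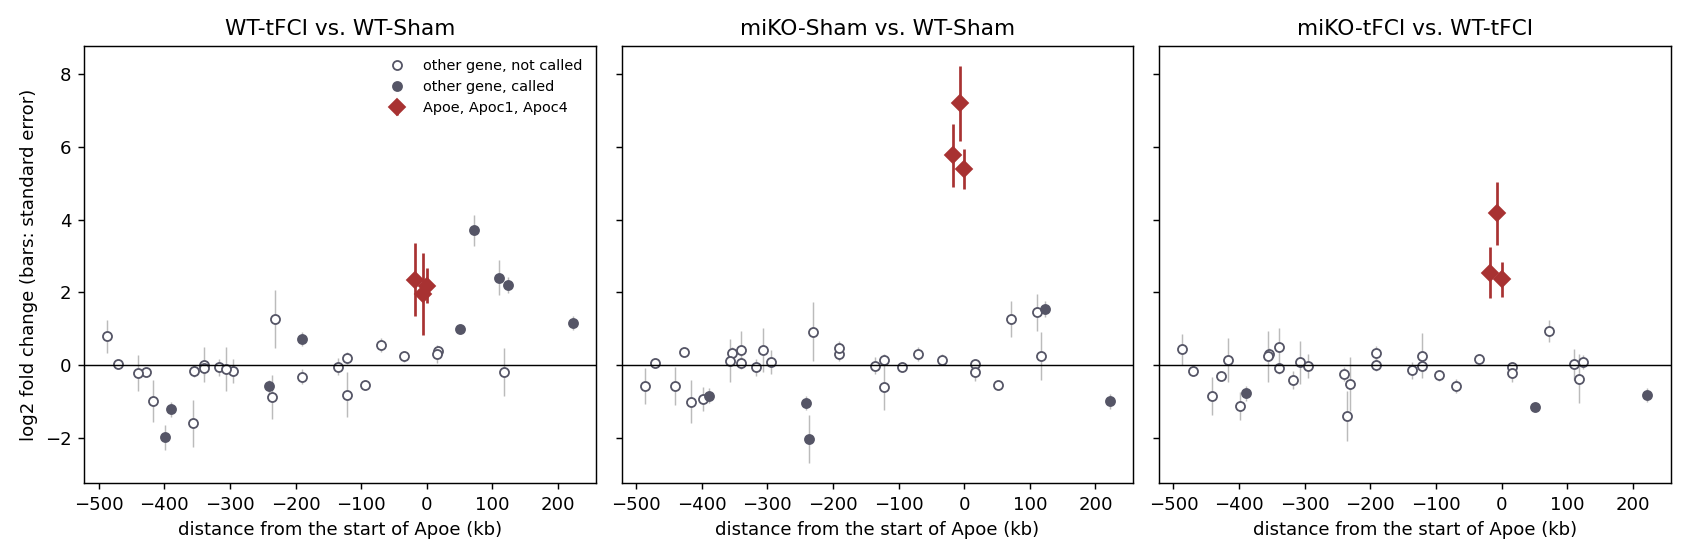
Log2 fold change (bars for the standard error) against distance in kb from the start of Apoe, for Apoe, Apoc1 and Apoc4 (red diamonds) and the 33 other fitted genes within 500 kb (circles, filled where called). In miKO-Sham vs. WT-Sham the 3 members lie at 5.39 to 7.19, and Bcl3, the highest of the other genes, at 1.54, whereas in WT-tFCI vs. WT-Sham some other genes lie as high as the members.

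Genes that act with the members were followed in 5 lists, in which 59 of 75 distinct genes were fitted. Of all genes, 8.58% were called higher and 6.8% lower in miKO-Sham vs. WT-Sham, and 20.9% and 11.7% in WT-tFCI vs. WT-Sham. The shares were 4.08% and 4.71% in miKO-tFCI vs. WT-tFCI, and 21.9% and 13.9% in miKO-tFCI vs. miKO-Sham. LXRs and the genes of cholesterol efflux (18 of 19 fitted) gave the following counts: 10 rose and 0 fell in miKO-Sham vs. WT-Sham, with a median log2 fold change of 0.80. In WT-tFCI vs. WT-Sham 8 rose and 1 fell (median 0.44), in miKO-tFCI vs. WT-tFCI 4 rose and 2 fell (0.35), and in miKO-tFCI vs. miKO-Sham 3 rose and 3 fell (−0.22). The last of these counts lay near the shares of all genes. Npc2, the carrier of cholesterol out of the lysosome, rose by a log2 fold change of 1.29 ± 0.16 (SE) in miKO-Sham vs. WT-Sham (edgeR, adjusted p = 3.43e-05), while Npc1, its partner, had −0.27 ± 0.14. Abca1, the pump that loads apolipoprotein E with lipid, rose by 1.27 ± 0.24 (edgeR, adjusted p = 0.00166). Mylip, the ubiquitin ligase that degrades LDL receptors, rose by 1.12 ± 0.19 and Lpcat3, which remodels phospholipids, by 0.64 ± 0.15. After tFCI the values of Npc2, Abca1, Mylip and Lpcat3 between the genotypes were 0.34, 0.39, 0.63 and 0.35 on the log2 scale, none of them called (Mylip had an edgeR adjusted p of 0.0504). Of the LXR genes, Nr1h2 had 0.07 ± 0.13 and Nr1h3, named here after its values were seen, 1.15 ± 0.46 in miKO-Sham vs. WT-Sham, neither of them called, and Nr1h3 rose with tFCI by 2.00 ± 0.44 in WT and 1.63 ± 0.42 in miKO mice.

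Genes for receptors that take up apolipoprotein E or signal from it were fitted for 13 of 15 genes, of which 6 rose and 0 fell in miKO-Sham vs. WT-Sham (median 0.69) and 3 rose and 0 fell in miKO-tFCI vs. WT-tFCI (0.55). In WT-tFCI vs. WT-Sham 9 rose and 0 fell (median 1.01), and in miKO-tFCI vs. miKO-Sham 5 rose and 1 fell (0.34). Of all genes, 8.58% and 6.8%, 4.08% and 4.71%, 20.9% and 11.7%, and 21.9% and 13.9% were called higher and lower in this order of comparisons. Trem2, a microglial receptor that binds apolipoprotein E, lay at 1440 ± 292 CPM in WT-Sham, 2293 ± 190 in miKO-Sham, 1143 ± 25.1 in WT-tFCI and 909 ± 104 in miKO-tFCI (SD, n = 3). It thus rose in miKO-Sham vs. WT-Sham (log2 fold change 0.68 ± 0.16, SE) and fell in miKO-tFCI vs. miKO-Sham (−1.33 ± 0.16). Tyrobp, its signalling adaptor, rose by 0.71 ± 0.22 and the scavenger receptor Stab1 by 1.43 ± 0.25 in miKO-Sham vs. WT-Sham. The chaperone Lrpap1 rose in WT-tFCI vs. WT-Sham, by 1.01 ± 0.12. Lrp1, a major apolipoprotein E receptor, was called in no comparison, with 0.08 ± 0.17 in miKO-Sham vs. WT-Sham.

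Lipases, which apolipoproteins C activate or inhibit, were fitted for 12 of 18 genes of their list. In WT-tFCI vs. WT-Sham 4 rose and 2 fell (median 0.24), in miKO-Sham vs. WT-Sham 3 rose and 1 fell (0.15), in miKO-tFCI vs. WT-tFCI 3 rose and 1 fell (0.28), and in miKO-tFCI vs. miKO-Sham 2 rose and 1 fell (0.06). The shares of all genes called higher and lower were 20.9% and 11.7%, 8.58% and 6.8%, 4.08% and 4.71%, and 21.9% and 13.9% in the same order. Lpl, lipoprotein lipase itself, rose above all with tFCI, by a log2 fold change of 4.01 ± 0.23 (SE) in WT mice, and by 1.06 ± 0.23 in miKO-Sham vs. WT-Sham. Lipa, the lysosomal acid lipase, rose in both genotype comparisons, by 1.74 ± 0.18 after sham surgery and by 0.99 ± 0.18 after tFCI, and so did the phospholipid transfer protein gene Pltp, which is also in the LXR list, by 0.90 ± 0.17 and 0.63 ± 0.17. Mgll, which splits monoacylglycerol, fell by 2.06 and by 1.47 on the log2 scale. Pnpla2, the lipase of lipid droplets, and Sel1l, needed for lipoprotein lipase to leave the endoplasmic reticulum, were called in no comparison.

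Apolipoproteins outside the cluster (7 of 15 fitted) moved in both directions: 3 rose and 3 fell in WT-tFCI vs. WT-Sham (median 0.66), 1 rose and 3 fell in miKO-Sham vs. WT-Sham (−1.09), 1 rose and 2 fell in miKO-tFCI vs. WT-tFCI (0.99), and 3 rose and 1 fell in miKO-tFCI vs. miKO-Sham (1.63). Over all genes, 20.9% and 11.7%, 8.58% and 6.8%, 4.08% and 4.71%, and 21.9% and 13.9% were called higher and lower in these comparisons. Apoa1 fell in both comparisons with WT-Sham and Apoa2 in WT-tFCI vs. WT-Sham. Both were highest in WT-Sham replicate 2 (WT-Sham range 0.120 to 50.5 CPM for Apoa1 and 1.74 to 21.7 for Apoa2). In miKO-Sham vs. WT-Sham the receptor gene Apobr and Apob also fell, the latter from a mean of 2.12 to 0.0926 CPM. The medians of these 2 comparisons are the values of Apobr. Apod, a lipocalin carrier, rose in each of the comparisons, by a log2 fold change of 5.02 ± 0.38 (SE) with tFCI in WT mice and by 1.52 ± 0.29 between the genotypes after tFCI. Clu, which encodes apolipoprotein J, had 12.9 to 21.6 CPM in WT-Sham, 25.4 to 59.0 in miKO-Sham, 35.7 to 317 in WT-tFCI and 116 to 917 in miKO-tFCI. It rose with tFCI in both genotypes, but in WT mice it was not called without WT-tFCI replicate 1 (log2 fold change 1.55 ± 0.56, SE, edgeR, adjusted p = 0.0524). Apod and Clu are also made by glia other than microglia. Apobr, a receptor for apolipoprotein B particles, fell between the genotypes by 1.09 after sham surgery and by 1.10 after tFCI. Apoh, which encodes beta-2-glycoprotein I, fell by 1.60 with tFCI in WT mice and by 1.27 in miKO mice.

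Transcription factors linked to the Apoe locus (14 of 15 fitted) gave 2 that rose and 0 that fell in miKO-Sham vs. WT-Sham (median 0.12) and 1 and 0 in miKO-tFCI vs. WT-tFCI (−0.21), near the shares over all genes (8.58% and 6.8%, and 4.08% and 4.71%). In WT-tFCI vs. WT-Sham 2 rose and 2 fell (−0.30), and in miKO-tFCI vs. miKO-Sham 2 rose and 7 fell (−0.63). The shares over all genes were 20.9% and 11.7%, and 21.9% and 13.9%. Spi1, which encodes PU.1, and Tfe3, a lysosomal regulator, fell in miKO-tFCI vs. miKO-Sham, by 0.70 and by 1.11 on the log2 scale. Cebpb, a factor of inflammatory genes, rose with tFCI, by a log2 fold change of 0.68 ± 0.17 (SE) in WT and 0.71 ± 0.17 in miKO mice. Ncor1, the corepressor that binds HDAC3, had 0.03 ± 0.12 and −0.10 ± 0.12 in the genotype comparisons and was called in no comparison. Over the 59 genes of all lists, 19 rose and 4 fell in miKO-Sham vs. WT-Sham (median 0.28) and 9 rose and 5 fell in miKO-tFCI vs. WT-tFCI (0.25). Of all genes, 8.58% and 6.8%, and 4.08% and 4.71%, were called higher and lower there.

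**Figure D5:**
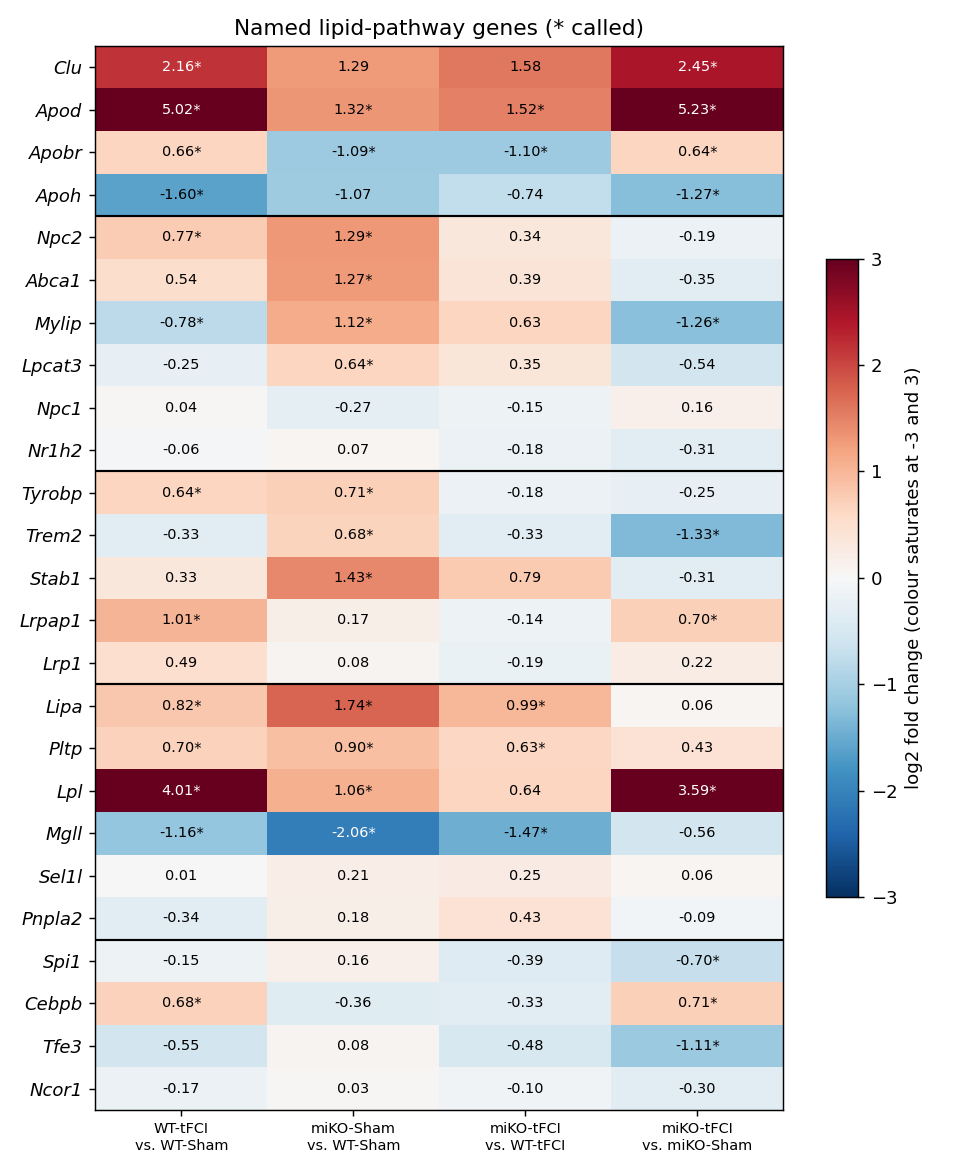
Log2 fold changes (numbers and colour, saturating at −3 and 3) of the named pathway genes in 4 comparisons, with an asterisk where a gene was called, in blocks for apolipoproteins outside the cluster, LXR and efflux, receptors, lipases and transcription factors. Lipa and Pltp are called higher in both genotype comparisons. Npc2, Abca1, Mylip and Lpcat3 are called in miKO-Sham vs. WT-Sham and not in miKO-tFCI vs. WT-tFCI, and of these 4 the interaction was called for Npc2.

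The genes whose levels were most like that of Apoe over the 12 libraries, among 9318 genes with a mean of at least 10 CPM, were Aoah (Pearson r = 0.989 on log2 CPM with batch removed), Grtp1 (0.984), the autophagy receptor gene Sqstm1 (0.981), Clec7a (0.981) and Pld3 (0.980). Clec7a, which encodes the receptor dectin-1, had a mean of 17.6 CPM in WT-Sham and 448 in miKO-Sham, and of 87.7 in WT-tFCI and 246 in miKO-tFCI. Aoah, which inactivates bacterial lipopolysaccharide, had 2.83, 68.3, 9.21 and 41.2 CPM in the same order. Both thus had the order of groups of Apoe. For Apoc1 the genes were Pgap2 (0.963), Scarb1 (0.952), Apoe itself (0.950), Tuba4a (0.950) and Sqstm1 (0.949). These correlations describe 12 libraries in 4 groups, which all genes share, and without removal of the batch 4 of the 5 genes stayed the same for each.

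Markers of other cells were present at low levels beside the sums of microglial markers. Astrocytes, the main source of Apoe in the healthy brain, had summed markers (14 genes, none at 0 in any group) of 188 to 209 CPM in WT-Sham, 133 to 162 in miKO-Sham, 195 to 425 in WT-tFCI and 277 to 904 in miKO-tFCI. Most of this sum came from Slc1a3 in the sham groups. Single markers moved in both directions: in miKO-Sham vs. WT-Sham 3 rose and 1, Slc1a3, fell (median log2 fold change 1.02), and in miKO-tFCI vs. WT-tFCI 4 rose and 1 fell (1.19). With tFCI in WT mice 10 rose and 1 fell (2.64). Of all genes, 8.58% and 6.8%, 4.08% and 4.71%, and 20.9% and 11.7% were called higher and lower in these comparisons. The astrocyte filament gene Gfap had a mean of 0.326 CPM in WT-Sham and 1.68 in miKO-Sham, and of 46.3 in WT-tFCI and 142 in miKO-tFCI. Slc1a3, a glutamate transporter, had 180, 109, 111 and 67.1 CPM in that order. Border-associated macrophages, which also make Apoe, had summed markers (11 genes, none at 0) of 122 to 147 CPM in WT-Sham, 118 to 403 in miKO-Sham, 221 to 340 in WT-tFCI and 414 to 963 in miKO-tFCI, with F13a1 at a mean of 20.1, 35.4, 43.4 and 188 CPM. Monocyte markers (12 genes) summed to 135 to 282, 135 to 203, 812 to 1229 and 541 to 1283 CPM, and neutrophil markers (11 genes) to 637 to 1361, 1117 to 1136, 527 to 592 and 987 to 1293 CPM in the same order. Nr4a1 and Fn1 made up most of the monocyte sum in WT-tFCI, at 507 and 369 CPM, and lay at 137 and 206 CPM in miKO-tFCI. The neutrophil sum held Csf3r at 565, 764, 352 and 261 CPM and S100a8 at 103, 90.3, 61.0 and 298 CPM. In miKO-tFCI vs. WT-tFCI 4 single monocyte markers rose and 1 fell (median 1.79). Of 10 neutrophil markers fitted, 6 rose and 0 fell (2.27). Of the 11 border-associated macrophage markers 4 rose and 0 fell (1.22), and of 15 microglial markers 0 rose and 7 fell (−0.50). In miKO-Sham vs. WT-Sham these counts were 2 and 0, and 1 and 6, and in WT-tFCI vs. WT-Sham 4 and 0, and 0 and 10. They were 8 and 0, and 0 and 13, in miKO-tFCI vs. miKO-Sham, where 21.9% and 13.9% of all genes were called higher and lower. The highest sum in any library was 529 CPM for B cells, 412 for endothelial and mural cells, 314 for oligodendrocytes and 16.5 for neurons. The part of these cells in the levels of the members was not tested.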

How the data were processed

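RNA of flow-sorted microglia was sequenced in 12 libraries. Per the submitters' processing notes, reads passed FastQC 0.11.9, Trim Galore, HISAT2 2.2.1, SAMtools and HTSeq 1.99.2 (mm10, GRCm38.p6), and raw counts per gene were deposited by the authors without normalization. Whether reads were counted by strand is not given in the sources used here. Of the reads, 30.7% to 38.5% lay on genes; the closing lines for other reads were left out of library sizes.

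Counts were analysed with edgeR 4.0.16 in R 4.3.3: filterByExpr, TMM (factors 0.864 to 1.11) and 1 quasi-likelihood model with terms for group and batch (common BCV, the biological coefficient of variation, 0.199), with p-values adjusted by Benjamini-Hochberg over 16451 genes. Each standard error of a fold change is the size of the log2 fold change divided by the square root of the quasi-likelihood F statistic. It rests on a spread shared by all 4 groups, not on that of the groups compared. Fitted with only the groups compared, the standard error of Apoe was 0.15 in WT-tFCI vs. WT-Sham (0.48 in the main fit). In miKO-tFCI vs. miKO-Sham it was 0.61 (0.47 in the main fit). Differences within batches and likeness used log2 CPM with a prior count of 2. The fit was tested on simulated counts. GENCODE M21 matched 55141 of 55401 identifiers. DESeq2 1.42.0, other scalings, filters and batch terms, and leaving out each library were the alternatives.

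The members, lists and tests were chosen with earlier results of these data known. Of each pathway list, up to 4 genes with the highest mean CPM among those called in any comparison and up to 2 among those called in none were named, and of marker lists the 2 with the highest mean CPM, of which a few are shown. In the locus, the 2 nearest fitted genes on each side and up to 4 called in miKO-tFCI vs. WT-tFCI were named. The sum of a marker list adds the CPM of its genes. Pltp, Scarb1 and Nr1h2 are in more than 1 list. Bcl3, Apoa1, Apoa2 and Apob were named after their values were seen. Of the genes that this rule names, 2 are not reported here.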

Additional observations from a re-analysis of the deposited data

Results flagged for a closer look

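In 4 genes of the pathway lists and 2 other genes of the locus, the difference between miKO and WT mice itself differed between sham surgery and tFCI, by edgeR's test of the interaction of genotype and surgery with Benjamini-Hochberg adjustment. In all 6, as in the members, the interaction was negative. Of all genes, 2.57% were called with a negative and 1.25% with a positive interaction. Scarb1, the high-density lipoprotein receptor, lay at 39.4 ± 8.55 CPM in WT-Sham and 231 ± 24.6 in miKO-Sham, and at 93.7 ± 8.75 in WT-tFCI and 190 ± 42.4 in miKO-tFCI (SD, n = 3). Its interaction was −1.57 ± 0.23 on the log2 scale (SE, edgeR, adjusted p = 0.00144), and it was called whichever of 12 libraries was left out. Bcl3, an NF-kB regulator 124 kb from Apoe, had −1.47 ± 0.29 (edgeR, adjusted p = 0.00974), and was not called without WT-tFCI replicate 2.

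Trem2 had −1.01 ± 0.22 (edgeR, adjusted p = 0.0194) and was called in 8 of 12 fits with a library left out, but not without replicate 2 or 3 of WT-Sham or of WT-tFCI. Npc2 had −0.95 ± 0.22 (edgeR, adjusted p = 0.0241) and was called in 6 of 12, but not without WT-Sham replicate 2 or 3, miKO-Sham replicate 1 or 2, or WT-tFCI replicate 2 or 3. Abcg1, a cholesterol exporter, had −1.04 ± 0.27 (edgeR, adjusted p = 0.0414) and Vasp, an actin regulator, −0.66 ± 0.17 (edgeR, adjusted p = 0.0414), each called in 3 of 12. Abcg1 was called only without WT-Sham replicate 1, miKO-Sham replicate 3 or miKO-tFCI replicate 2, and Vasp only without replicate 1 of WT-Sham, miKO-Sham or miKO-tFCI. The adjusted p over all alternatives reached at most 0.0137 for Scarb1, 0.0510 for Bcl3, 0.0802 for Trem2, 0.0893 for Npc2, 0.117 for Abcg1 and 0.165 for Vasp, and the sign was negative in each of them.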

How the results depend on the processing

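Over 316 recomputed fold changes of Apoe, Apoc1 and Apoc4, 0 changed direction (within-batch differences of mean log2 CPM not counted), 308 moved by less than the spread between replicates and 8 by more. In miKO-tFCI vs. miKO-Sham that spread (SD 1.09, 1.68 and 1.26) was larger than the fold changes themselves (−0.87, −1.08 and −0.89). A move below it therefore shows little about stability there. Batch 2 alone gave 2.49 for Apoe in WT-tFCI vs. WT-Sham and −2.09 for Apoc4 in the interaction. Leaving out each library gave Apoe 1.98 to 2.46 in WT-tFCI vs. WT-Sham, 4.97 to 5.86 in miKO-Sham vs. WT-Sham, 2.07 to 2.75 in miKO-tFCI vs. WT-tFCI, −1.39 to −0.38 in miKO-tFCI vs. miKO-Sham and −3.53 to −2.59 in the interaction. It gave Apoc1 1.29 to 5.68, 6.53 to 10.92, 3.93 to 4.69, −1.81 to −0.40 and −6.73 to −2.34, and Apoc4 1.84 to 4.19, 5.16 to 7.61, 2.18 to 2.99, −1.56 to −0.24 and −5.09 to −2.64, with the far ends against WT-Sham reached without its replicate 2. Pathway genes called were 26 to 35 (31 with all libraries), 18 to 24 (23), 9 to 17 (14), 23 to 30 (27) and 1 to 6 (4), and genes of the locus 8 to 11 (9), 3 to 7 (5), 1 to 4 (3), 7 to 9 (8) and 0 to 3 (2). The pathway count in miKO-tFCI vs. WT-tFCI was 9 without WT-tFCI replicate 2 or 3. The 4 pathway interactions became 1 without WT-Sham replicate 2 or WT-tFCI replicate 2 or 3, and 2 without WT-Sham replicate 3 or miKO-Sham replicate 1 or 2. Locus genes called were 3 in miKO-Sham vs. WT-Sham without miKO-Sham replicate 1, and 1 in miKO-tFCI vs. WT-tFCI without WT-tFCI replicate 2 or 3 or miKO-tFCI replicate 3. The 2 locus interactions became 0 without WT-tFCI replicate 2, and 1 without WT-Sham replicate 2 or 3, miKO-Sham replicate 2 or 3, WT-tFCI replicate 1 or 3, or miKO-tFCI replicate 2 or 3. Without a filter on low counts 13 pathway interactions were called. Locus genes called in miKO-Sham vs. WT-Sham were 3 without a batch term or in batch 2 alone. In miKO-tFCI vs. WT-tFCI they were 5 without a filter or in batch 2 alone, 6 with only the groups compared and 1 without a batch term. In the interaction they were 1 with scaling by library size only, with at least 10 counts in every library or without a batch term. Within 200 kb the counts were 5, 1, 1, 3 and 1. The causes were not tested. Of the members, Apoe alone was among the genes called in WT-tFCI vs. WT-Sham, with Apoc4 by DESeq2 or with the replicate block, and all 3 without a filter, WT-Sham replicate 2 or miKO-Sham replicate 3. In miKO-tFCI vs. WT-tFCI, 2 of 3 were called without a batch term, WT-tFCI replicate 1 or 3 or miKO-tFCI replicate 2 or 3, and 1 without WT-tFCI replicate 2. In the interaction, 0 were called without WT-Sham or WT-tFCI replicate 2 or 3 or miKO-Sham replicate 1 or 2, 2 by DESeq2, and 3 without a filter or miKO-Sham replicate 3. In miKO-tFCI vs. miKO-Sham, 3 were called without a filter or miKO-Sham replicate 3. Scaling by library size only moved the median of all genes by −0.27 in miKO-Sham vs. WT-Sham and by 0.17 in the interaction.

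Not every same-numbered pair of libraries deviated together: 11 of 18 correlated above 0.1 (r −0.06 to 0.67), against 5 of 36 other pairs, and replicate 1 is also batch 1, which the model holds. The deviations were taken from the mean of the 3 libraries of a group, which ties the values of the other pairs to those of the same-numbered pairs. The comparison therefore cannot decide whether the numbers are a pairing. The main model did not take them as one. With a replicate block, pathway genes called were 31, 22, 13, 27 and 4 and genes of the locus 9, 4, 3, 8 and 2, and Apoe had log2 fold changes of 2.18, 5.29, 2.35, −0.76 and −2.94. With 3 libraries a group and 1 to 46 counts of Apoc1 in WT-Sham, depth limits its folds and those of Apoc4.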
